A study of Mus musculus with 8 samples.

Results

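Messenger RNA of heat shock proteins and chaperonins was compared between kidneys of 4 mouse embryos lacking Grb2 in the ureteric bud and 4 wild-type controls. Genes were taken by symbol: Hspa, Hspb, Hspd, Hspe and Hsph genes, Hsp90 genes, Dnaja, Dnajb and Dnajc genes, and Tcp1 with the Cct genes, without pseudogenes. This gave 76 genes of 22180 measured: 10 chaperonin (CCT), 2 HSP60 and HSP10, 3 HSP110, 2 HSP90, 11 HSP70, 3 J-domain A, 12 J-domain B, 26 J-domain C and 7 small heat shock protein genes. A further 6 genes that fit the same symbols, Dnaja1, Dnajb8, Dnajc17, Dnajc19, Hspb2 and Hsp90ab1, had no probe set of their own and were not analysed here.

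Each of the 8 arrays held RNA of 1 embryo at E14.5, in mid-gestation, and all embryos were littermates. Both kidneys of an embryo were pooled. The genotypes are given as Grb2 UB-cKO (written Grb2_cKO below) and wild-type control. The labels place the knockout in the ureteric epithelium, with the Cre driver and the alleles not given in the sources used here. The labels number no replicates, so replicate numbers here only name the embryos in each group. RNA came from the whole kidney, so the deleted cells were 1 part of each sample, and fewer cells of a type cannot be told apart from less RNA per cell.

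Chaperones bind unfolded or partly folded proteins and help them reach their working shape. HSP70 proteins bind short greasy stretches of a chain in cycles of ATP use. J-domain proteins bring clients to HSP70 and start its ATPase, while HSP110 proteins release the nucleotide so that the cycle can go on. HSP90 acts later, on clients such as kinases and steroid receptors. The CCT complex, also called TRiC, is a double ring of different but related subunits that encloses actin, tubulin and other proteins while they fold, and HSP60 with its lid HSP10 does the like in mitochondria. Small heat shock proteins hold unfolded proteins without using ATP and are plentiful in muscle. The transcription factor HSF1 switches on many of these genes under heat and other stress through heat shock elements, which are repeats of GAA in alternating direction.

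Genes that mark the sex of an embryo also set the groups apart, save for 1 control, so sex and genotype can be told apart only through that embryo. Averaged over Uty, Kdm5d and Eif2s3y, their level was 9.94 to 10.10 on the log2 scale in the 4 Grb2_cKO embryos and 9.94 in control replicate 3, against 4.09 to 4.24 in the other 3 controls. Xist, expressed from the inactive X chromosome, stood at 12.22 to 12.79 in these 3 controls, 5.39 in control replicate 3 and 4.95 to 6.03 in Grb2_cKO. Grb2 itself was lower in each Grb2_cKO kidney, at 8.20 ± 0.12 against 8.65 ± 0.03 in controls (SD, n = 4 each), a log2 fold change (Grb2_cKO minus control) of -0.45 (SE 0.07, adjusted p = 0.0017, exact two-sided permutation p = 0.0286, the smallest that 4 against 4 allows). With the Y-linked level as a covariate Grb2 stood at -0.40 (limma adjusted p = 0.10) and missed the threshold defined below, as it did with the mean of the erythroid markers (adjusted p = 0.142). Across all genes 28.1% passed the threshold, 13.7% higher and 14.3% lower in Grb2_cKO, with a median log2 fold change of 0.0058. The threshold is a Benjamini-Hochberg adjusted p under 0.05 in limma over all genes. All values are the deposited log2 values, and the position of the Grb2 probe set relative to the deleted exons is unknown here.

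Heat shock elements are the best known shared control of these genes, so their promoter sequences come first. Promoter windows (250 bases before to 50 bases after an annotated start, RefSeq, GRCm38.p6) matched 63 of the 76 genes. They were searched on both strands for 3 alternating units, each parted from the next by any 2 bases: GAA, TTC and GAA, or TTC, GAA and TTC. Windows of 4 chaperone genes held such a run (6.35%, against 0.663% of 27018 genes with a window): Hspd1, Hspe1, Hsph1 and Dnajb6. The mRNAs of these 4 genes were all lower in Grb2_cKO, as given below. Of chaperone genes with a window, 25 fell, 9 rose and 29 did not pass, and none of the last 2 groups held one. At 0.663% of all genes, finding none among 9 or 29 is no contrast with the genes that fell. Hspd1 and Hspe1 share 1 stretch, so their run is counted for both. A match is a run of letters, not a measured binding site, and a window without one says nothing of binding elsewhere.

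Hspd1 and Hspe1 encode HSP60 and HSP10 and lie head to head, so a single stretch serves both. It ends at the base before the Hspe1 start (chr1:55088038-55088147, + strand). The Hspd1 start on the other strand lies 216 bases upstream of the Hspe1 start, and a further annotated Hspd1 start lies 95 bases downstream of it. Capitals mark 4 units in a row, at positions -89 to -72 from the Hspe1 start.
Hspe1: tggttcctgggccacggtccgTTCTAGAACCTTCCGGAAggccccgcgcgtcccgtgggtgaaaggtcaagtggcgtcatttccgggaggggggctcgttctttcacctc

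Hsph1 encodes an HSP110 protein and had its run just after its annotated starts (chr5:149636280-149636309, - strand). Dnajb6, a J-domain gene whose product holds back aggregation, had one shortly before a start (chr5:29735843-29735872, + strand). Capitals mark the 3 units.
Hsph1: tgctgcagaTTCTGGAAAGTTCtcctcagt
Dnajb6: cagctccgaGAATCTTCCGGAAcgctagac

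With only 2 units (GAA and TTC in either order, again with any 2 bases between, which reads the same on both strands and is also part of every run of 3) 19 of the 63 chaperone genes matched (30.2%, against 17.0% of all genes). By direction, 9 of the 25 genes that fell matched, 5 of the 9 that rose and 5 of the 29 that did not pass. A link between a match and direction was not tested. Among the 7 small heat shock protein genes 4 matched, and Hspb7, which rose, did not. The 4 were Hspb1, Hspb6 and Hspb8, which rose, and Hspb3, which did not pass. The same 8 letters stood in the first 3 of these, shown in capitals with their surroundings. Hspb1 is at chr5:135887791-135887820 (+ strand), Hspb6 at chr7:30553170-30553199 (+ strand) and Hspb8 at chr5:116422844-116422873 (- strand).
Hspb1: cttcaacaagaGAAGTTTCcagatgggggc
Hspb6: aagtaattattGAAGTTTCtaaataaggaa
Hspb8: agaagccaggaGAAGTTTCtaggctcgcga

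Hspa1a and Hspa1b, the stress-inducible HSP70 pair, are near-identical copies. Of the 250 bases before their starts, 3 differed. Both stretches below end at the base before the start, Hspa1a at chr17:34972157-34972276 and Hspa1b at chr17:34959239-34959358, each on the - strand, with the 2 units of a short match in capitals. They are shown because the array values of the pair differed, as described with the HSP70 genes.
Hspa1a: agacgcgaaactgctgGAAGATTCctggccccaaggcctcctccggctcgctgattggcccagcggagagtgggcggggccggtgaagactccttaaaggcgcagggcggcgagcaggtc
Hspa1b: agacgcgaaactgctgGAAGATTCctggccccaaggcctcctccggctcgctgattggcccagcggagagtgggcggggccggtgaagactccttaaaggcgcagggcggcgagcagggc

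Of the 76 chaperone genes 30 fell (39.5%, against 14.3% of all genes), 10 rose (13.2%, against 13.7%) and 36 did not pass. The share that rose was near that of all genes. The median log2 fold change of the 76 genes was -0.13. The groups did not overlap for 31.2% of all genes, and among the chaperone genes for 33 genes that were lower (16.0% of all genes) and 12 that were higher (15.2%). The classes went different ways: in CCT, HSP60 and HSP10, HSP110 and HSP90 no gene rose, in the small heat shock proteins no gene fell, and HSP70 and J-domain genes went both ways. The classes without a call in a direction held only 2 to 10 genes. At 13.7% higher and 14.3% lower over all genes, such an absence says little by itself. The changes were modest, from -0.96 for Hspd1 to 0.80 for Hspa1a.

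**Figure D1:**
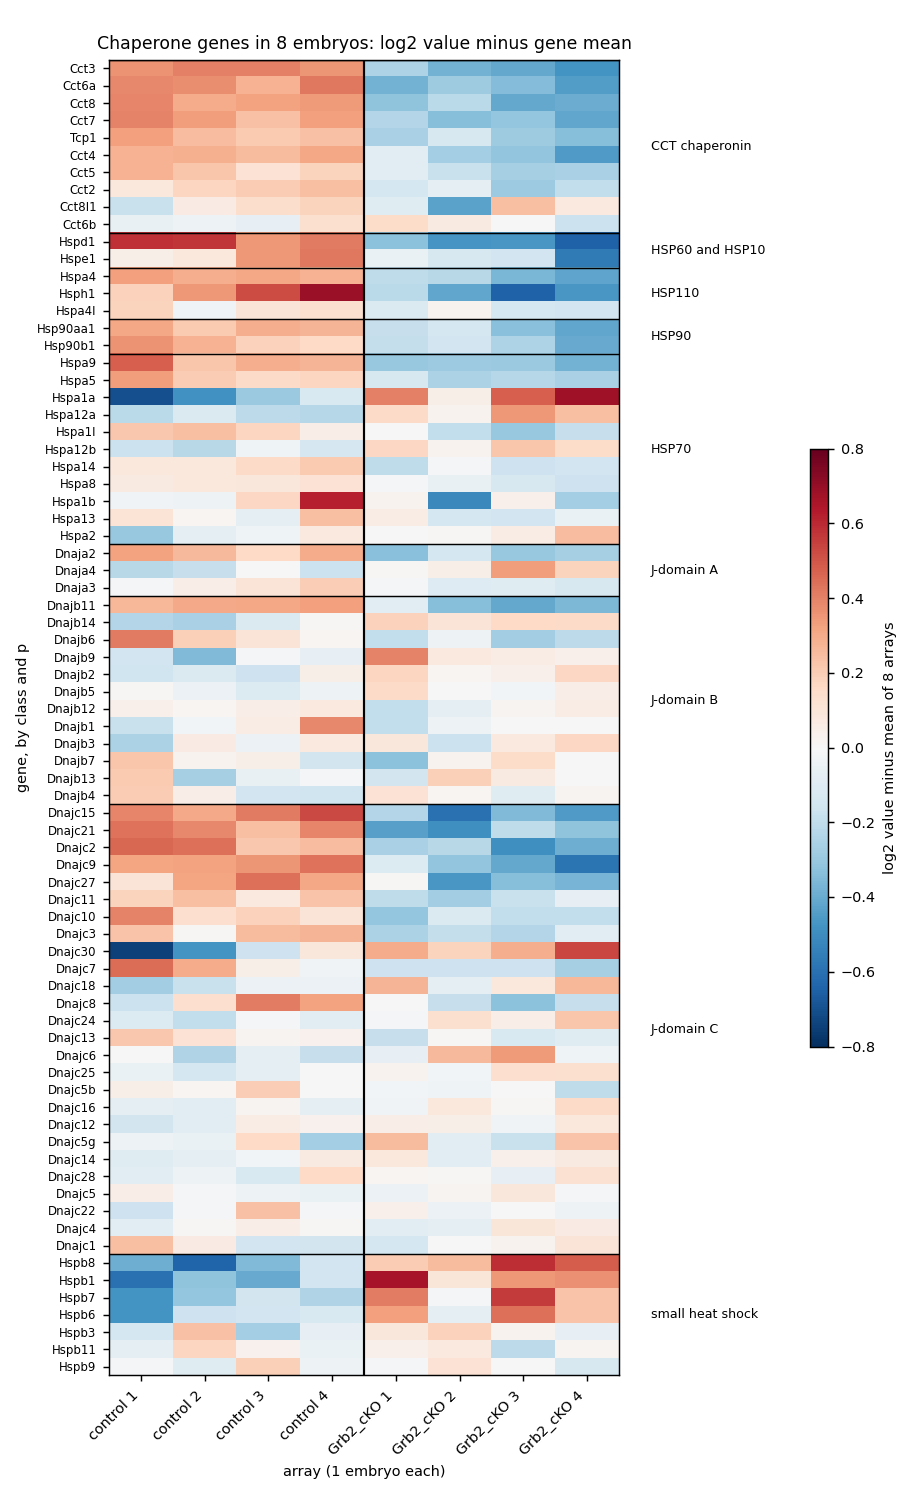
Log2 value of each of the 76 chaperone genes in each of the 8 embryos, minus the gene's mean over all 8 arrays, as colour (red above, blue below the gene's mean), with genes in rows by class and embryos in columns. The 8 ring subunit genes from Cct3 to Cct2 are above their mean in the 4 controls and below it in the 4 Grb2_cKO embryos, and Hspb8 and Hspb1 show the opposite.

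The subunits of the CCT ring fell together. The 8 genes of the ring expressed in most tissues, Tcp1, Cct2, Cct3, Cct4, Cct5, Cct6a, Cct7 and Cct8, were each lower. Their median log2 fold change was -0.60. None of the 8 overlapped between groups, where 16.0% of all genes were lower without overlap. In the class of 10 genes 8 fell (80.0%, against 14.3% of all genes). Cct3 stood at 11.05, 11.09, 11.09 and 11.04 in control replicates 1 to 4 and at 10.44, 10.31, 10.27 and 10.21 in Grb2_cKO replicates 1 to 4. Each Grb2_cKO embryo was thus more than 0.5 below each control, and the fall was 1.69-fold (log2 fold change -0.76, SE 0.07, adjusted p = 0.000103).

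Cct6a stood at 12.31, 12.30, 12.20 and 12.34 in controls and 11.54, 11.64, 11.58 and 11.47 in Grb2_cKO. It fell by 0.73 on the log2 scale (SE 0.07, adjusted p = 0.000109). Its other probe set was lower as well, by 0.48. For Cct8 the control values were 11.09, 10.997, 11.02 and 11.04, and the Grb2_cKO values were 10.38, 10.48, 10.29 and 10.30. Grb2_cKO replicate 2 was the highest of its group and still 0.52 below the lowest control. The log2 fold change of Cct8 was -0.67 (SE 0.07, adjusted p = 0.000163).

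Cct7 went from 10.92, 10.86, 10.75 and 10.85 in controls to 10.29, 10.18, 10.21 and 10.11 in Grb2_cKO, a log2 fold change of -0.65 (SE 0.07, adjusted p = 0.000209). The other 4 ring genes fell less. Cct4 stood at -0.56 (SE 0.08), Tcp1 at -0.51 (SE 0.07), Cct5 at -0.40 (SE 0.07) and Cct2 at -0.35 (SE 0.07), with adjusted p-values of 0.000623 to 0.00509. The intervals of Cct3 (95%, -0.91 to -0.61) and Cct2 (-0.51 to -0.19) did not overlap, though probe sets may differ in how strongly they register a change, and the difference between the subunits was not tested. A second probe set of Tcp1 was lower by 0.78.

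The other 2 genes of the class, Cct6b and Cct8l1, are relatives known from the testis. They did not pass, at 0.02 (95% interval -0.17 to 0.21) and -0.10 (-0.42 to 0.21). The interval of Cct6b excluded falls as large as those of the 8 ring genes, whose smallest was -0.35. No detection calls were used, so whether these probe sets read above background is unknown.

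The mitochondrial pair also fell, 2 of 2 genes against 14.3% of all genes. Hspd1 stood at 11.95, 11.94, 11.72 and 11.79 in controls and 11.05, 10.90, 10.91 and 10.72 in Grb2_cKO, the largest fall among the 76 genes at 1.94-fold (log2 fold change -0.96, SE 0.09, adjusted p = 0.000119). All 4 Grb2_cKO values lay at least 0.67 below the lowest control. Hspe1, which shares the printed promoter stretch, stood at 7.24, 7.28, 7.54 and 7.61 in controls and 7.14, 7.07, 7.04 and 6.62 in Grb2_cKO. The groups did not overlap, but only 0.10 separated control replicate 1 from Grb2_cKO replicate 1. Hspe1 fell by 0.45 (SE 0.13, adjusted p = 0.0263), and missed the threshold without control replicate 3 (-0.41, adjusted p = 0.0691) or 4 (-0.38, adjusted p = 0.0677) and with p-values adjusted over all probe sets (adjusted p = 0.0542).

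Of the 3 HSP110 genes 2 fell (66.7%, against 14.3% of all genes), and Hsph1 fell 1.83-fold. It stood at 9.27, 9.43, 9.61 and 9.78 in controls and 8.87, 8.67, 8.44 and 8.62 in Grb2_cKO, so the controls spread over 0.50 and still did not overlap with the knockouts (log2 fold change -0.87, SE 0.12, adjusted p = 0.000749). Hspa4, the HSP110 protein also called APG-2, was tight within the groups. Its values were 11.60, 11.57, 11.59 and 11.56 in controls and 11.08, 11.05, 10.91 and 10.86 in Grb2_cKO, and it fell by 0.61 (SE 0.07, adjusted p = 0.000291). Hspa4l stood at 7.65, 7.45, 7.58 and 7.61 in controls and 7.36, 7.51, 7.34 and 7.33 in Grb2_cKO and did not pass (-0.19, SE 0.07, adjusted p = 0.0864), except after quantile normalization (-0.25, adjusted p = 0.0487). Its groups overlapped.

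Both HSP90 genes with a probe set of their own fell, against 14.3% of all genes. Hsp90aa1, the inducible cytosolic form, stood at 9.60, 9.51, 9.59 and 9.57 in controls and 9.11, 9.16, 8.96 and 8.88 in Grb2_cKO. Hsp90b1, the endoplasmic reticulum (ER) form also called GRP94, stood at 12.42, 12.34, 12.25 and 12.23 in controls and 11.88, 11.91, 11.82 and 11.66 in Grb2_cKO. Neither gene overlapped between groups, with log2 fold changes of -0.54 (SE 0.08, adjusted p = 0.000788) and -0.49 (SE 0.08, adjusted p = 0.00143).

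**Figure D2:**
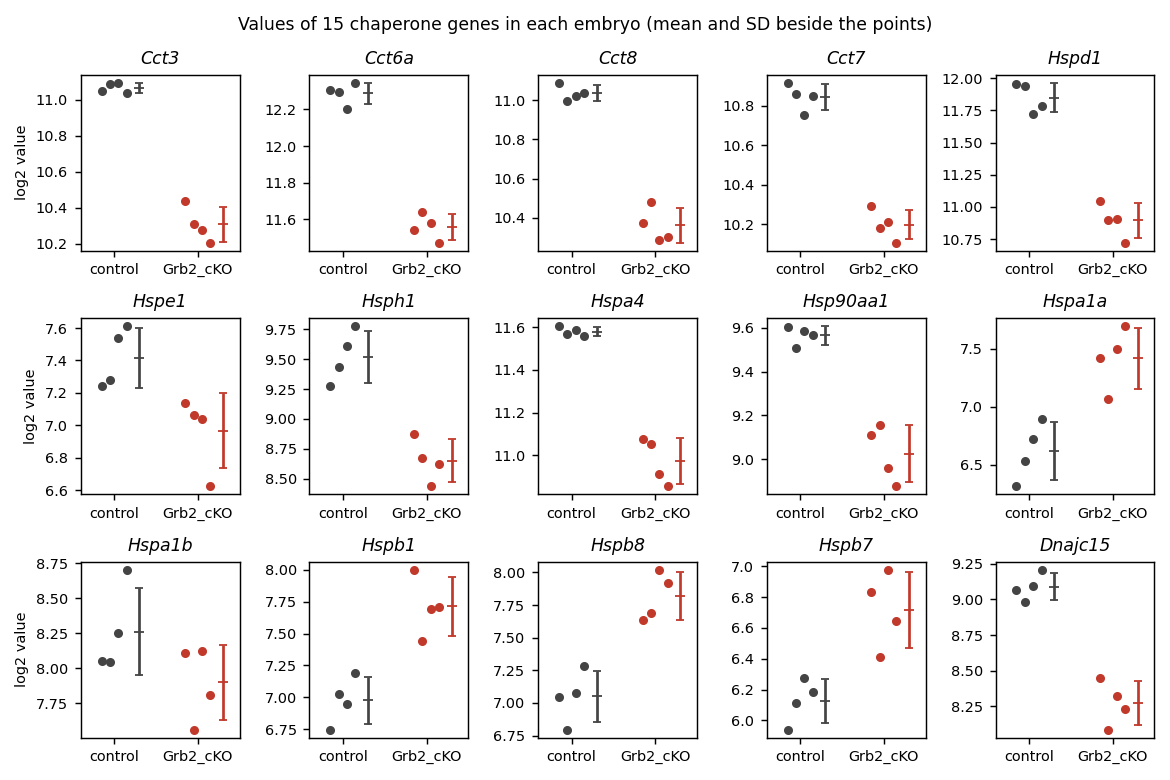
Log2 values of 15 chaperone genes in each embryo, with 4 points a group in the order of replicates 1 to 4 and the group's mean and SD (n = 4) beside them, on an axis of its own for each gene that does not start at 0. Of these genes, Hspa1b alone has overlapping groups. Hspa1a, Hspb1, Hspb8 and Hspb7 are higher in Grb2_cKO, and the other 10 are lower.

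HSP70 genes went both ways, 4 lower, 3 higher and 4 not passing of 11 (median log2 fold change -0.18). The shares were 36.4% lower, against 14.3% of all genes, and 27.3% higher, against 13.7%. The HSP70 of mitochondria, Hspa9 (mortalin), stood at 11.39, 11.13, 11.21 and 11.19 in controls and 10.61, 10.63, 10.62 and 10.54 in Grb2_cKO, and fell by 0.63 (SE 0.07, adjusted p = 0.000283). The HSP70 of the ER, Hspa5 (BiP), stood at 10.12, 9.98, 9.94 and 9.96 in controls and 9.66, 9.53, 9.56 and 9.52 in Grb2_cKO, and fell by 0.43 (SE 0.07, adjusted p = 0.00138). In both genes every Grb2_cKO embryo lay below every control. Hspa14, a ribosome-associated HSP70, and Hspa1l, a form known from the testis, fell by 0.27 and 0.34 (adjusted p = 0.0156 and 0.0112). With the mean of its probe sets Hspa1l stood at -0.13 (adjusted p = 0.30), and its second probe set read 0.08.

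The inducible pair read differently. Hspa1a stood at 6.32, 6.53, 6.72 and 6.90 in controls and 7.42, 7.07, 7.50 and 7.70 in Grb2_cKO, and rose 1.74-fold (log2 fold change 0.80, SE 0.15, adjusted p = 0.00343), the largest rise among the 76 genes. Hspa1b stood at 8.05, 8.04, 8.25 and 8.70 in controls and 8.11, 7.56, 8.12 and 7.81 in Grb2_cKO, with overlapping groups, and did not pass (-0.36, 95% interval -0.74 to 0.02, adjusted p = 0.15). The log2 value of Hspa1a minus that of Hspa1b was -1.81 to -1.51 in the 4 controls and -0.69 to -0.11 in the 4 Grb2_cKO embryos. That difference was set out after the values were seen, and no test of it is given. The copies are so alike that probes for 1 can also bind RNA of the other, and the bases these probe sets read are unknown here.

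The remaining HSP70 genes include the atypical pair Hspa12a and Hspa12b. Hspa12a stood at 8.98, 9.08, 8.99 and 8.97 in controls and 9.35, 9.22, 9.54 and 9.44 in Grb2_cKO, and rose by 0.39 (SE 0.08, adjusted p = 0.00517) with no overlap. Hspa12b, known from endothelial cells, rose by 0.28 (SE 0.07, adjusted p = 0.0154), though not past the threshold without control replicate 2 (0.25, adjusted p = 0.0526). Beside it, 7 of 10 endothelial markers were higher and none lower (mean over the list 9.74 to 9.84 in controls and 9.997 to 10.29 in Grb2_cKO), and their part in the value of Hspa12b was not tested. With the Y-linked or the erythroid covariate 0 of the 10 markers passed.

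Hspa8, the constitutive cytosolic HSP70, was at the edge of the threshold. It stood at 13.10, 13.11, 13.11 and 13.14 in controls and 13.01, 12.96, 12.89 and 12.86 in Grb2_cKO, every Grb2_cKO value below every control, with a log2 fold change of -0.18 (SE 0.06, adjusted p = 0.053). It passed after quantile normalization (adjusted p = 0.0389), without the dimmest genes (0.0314), with a trended and robust spread (0.00519) and with array weights (0.0454). Of its 3 other probe sets 1 stood at -0.19 and the others at 0.08. Hspa13 and Hspa2 did not pass, at -0.15 and 0.16.

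J-domain genes, the largest classes, went both ways. Of 41 measured, 12 fell (29.3%, against 14.3% of all genes), 3 rose (7.32%, against 13.7%) and 26 did not pass, with a median log2 fold change of -0.0030. In class A, Dnaja2, a cytosolic partner of HSP70, stood at 10.90, 10.83, 10.74 and 10.88 in controls and 10.24, 10.44, 10.28 and 10.31 in Grb2_cKO, and fell by 0.52 (SE 0.07, adjusted p = 0.000635). Dnaja3, the mitochondrial partner of Hspa9, stood at 9.75, 9.82, 9.87 and 9.97 in controls and 9.76, 9.66, 9.67 and 9.64 in Grb2_cKO, with overlapping groups, and did not pass (-0.17, SE 0.07, adjusted p = 0.102). Its 2 other probe sets read -0.02 and 0.09.

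Dnaja4 stood at 6.81, 6.85, 7.03 and 6.86 in controls and 7.04, 7.08, 7.37 and 7.21 in Grb2_cKO, and rose by 0.29 (SE 0.09, adjusted p = 0.0373). Control replicate 3 and Grb2_cKO replicate 1 were only 0.01 apart. The call was lost without control replicate 1, 2 or 4 (adjusted p = 0.0913, 0.0933 and 0.0765) or Grb2_cKO replicate 3 or 4 (0.0986 and 0.078). It was also lost after quantile normalization (0.0754), centring (0.0625) and adjustment over all probe sets (0.071).

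Class B had 12 genes, 2 of which fell (16.7%, against 14.3% of all genes), 1 rose (8.33%, against 13.7%) and 9 missed the threshold. The share that fell was near that of all genes, and the median log2 fold change was 0.04. Dnajb11, the ER partner of Hspa5 also called ERdj3, stood at 9.40, 9.44, 9.45 and 9.46 in controls and 9.04, 8.79, 8.72 and 8.78 in Grb2_cKO. The controls lay within 0.06 of each other, and the fall was 1.52-fold (log2 fold change -0.60, SE 0.08, adjusted p = 0.000535). Dnajb6, whose promoter match is printed above, stood at 8.18, 7.96, 7.88 and 7.79 in controls and 7.58, 7.73, 7.49 and 7.56 in Grb2_cKO. It fell by 0.36 (SE 0.10, adjusted p = 0.0177), but leaving out Grb2_cKO replicate 3 ended the call (-0.33, adjusted p = 0.0537).

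Dnajb14, a J-domain protein of the ER membrane, stood at 8.39, 8.37, 8.51 and 8.64 in controls and 8.82, 8.73, 8.79 and 8.78 in Grb2_cKO, and rose by 0.30 (SE 0.08, adjusted p = 0.0142). With the mean of its 2 probe sets it did not pass (0.18, adjusted p = 0.19). Dnajb9, an ER protein induced when ER folding is strained, stood at 8.92, 8.72, 9.06 and 9.005 in controls and 9.47, 9.15, 9.13 and 9.11 in Grb2_cKO. Its Grb2_cKO values were all higher than the controls, but it did not pass (0.29, SE 0.10, adjusted p = 0.0642), and passed without the dimmest genes (0.0418), with a trended and robust spread (0.0412) and with array weights (0.0483). Dnajb1, the main cytosolic partner of inducible HSP70, did not pass (-0.12, 95% interval -0.38 to 0.13). The other 7 genes of class B lay between -0.09 (Dnajb12) and 0.20 (Dnajb2).

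Class C had 26 genes, 9 of which fell (34.6%, against 14.3% of all genes), 1 rose (3.85%, against 13.7%) and 16 missed the threshold. Dnajc15, which sits at the mitochondrial import motor, fell most. It stood at 9.07, 8.98, 9.09 and 9.21 in controls and 8.45, 8.09, 8.32 and 8.23 in Grb2_cKO, a 1.76-fold fall (log2 fold change -0.82, SE 0.09, adjusted p = 0.000235). Dnajc21, a factor in ribosome assembly, stood at 8.19, 8.14, 7.997 and 8.15 in controls and 7.32, 7.26, 7.56 and 7.43 in Grb2_cKO, and fell by 0.73 (SE 0.08, adjusted p = 0.000266). In both genes at least 0.44 separated the groups.

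Dnajc2, the ribosome-bound chaperone also called MPP11 or zuotin, stood at 9.40, 9.38, 9.16 and 9.19 in controls and 8.68, 8.72, 8.45 and 8.55 in Grb2_cKO, and fell by 0.68 (SE 0.09, adjusted p = 0.000523). Dnajc9, a histone chaperone, stood at 9.02, 9.02, 9.06 and 9.14 in controls and 8.59, 8.39, 8.30 and 8.12 in Grb2_cKO, and fell by 0.71 (SE 0.10, adjusted p = 0.00065). Its Grb2_cKO values spread over 0.47, and all lay below the controls.

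The other 5 that fell were Dnajc27 (-0.58), the ER lumen proteins Dnajc10 (-0.41) and Dnajc3 (-0.38), Dnajc11 of mitochondria (-0.36) and Dnajc7 (-0.38), which links HSP70 and HSP90. Dnajc7 missed the threshold without control replicate 2 (-0.35, adjusted p = 0.0649) or Grb2_cKO replicate 4 (-0.36, adjusted p = 0.0538). With the erythroid covariate Dnajc7 stood at -0.01 (limma adjusted p = 0.986). Dnajc30, a mitochondrial protein, was the gene that rose, by 0.65 (SE 0.16, adjusted p = 0.0147). With the erythroid covariate it stood at 0.04 (limma adjusted p = 0.966). Its values were 7.74, 8.005, 8.32 and 8.58 in controls and 8.78, 8.66, 8.77 and 9.02 in Grb2_cKO. Its controls spread over 0.84, and control replicate 4 lay 0.09 below the lowest Grb2_cKO value. The 16 genes of class C that did not pass lay between -0.35 (Dnajc8) and 0.28 (Dnajc18), among them the synaptic vesicle chaperone Dnajc5 at 0.03 (95% interval -0.12 to 0.17).

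**Figure D3:**
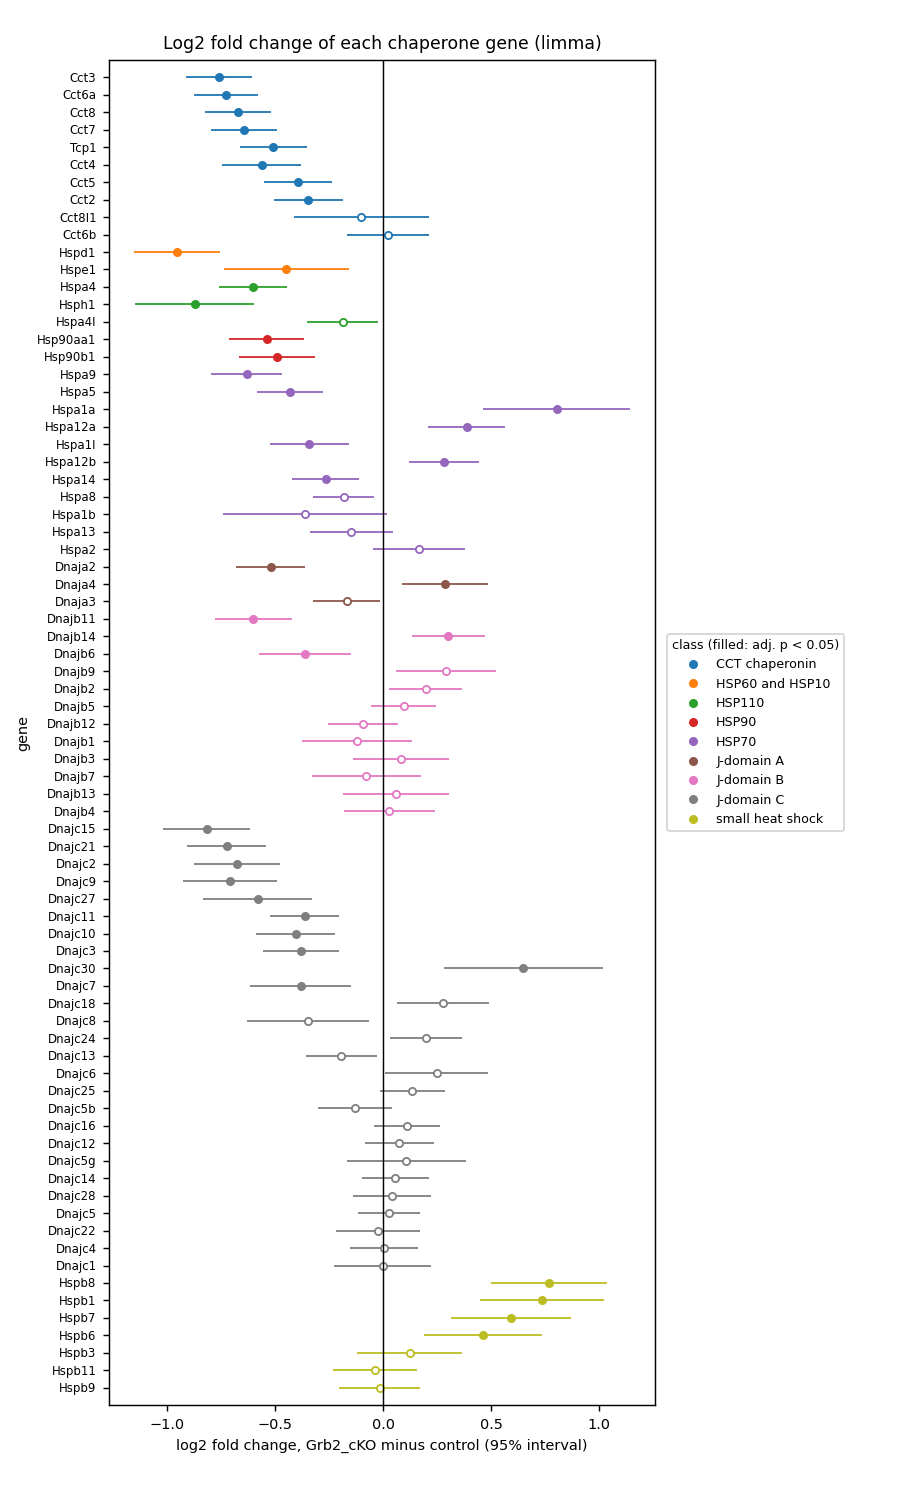
Log2 fold change (Grb2_cKO minus control) of each of the 76 chaperone genes with its 95% interval from limma, coloured by class, with filled points for an adjusted p under 0.05. CCT ring subunits lie between -0.76 and -0.35, and the 4 small heat shock protein genes that rose lie between 0.46 and 0.77.

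Small heat shock protein genes moved opposite to the chaperonins, with a median log2 fold change of 0.46. Of 7, 4 rose (57.1%, against 13.7% of all genes), none fell and 3 did not pass. Hspb8, which works with the HSP70 partner BAG3 in clearing damaged proteins, stood at 7.04, 6.80, 7.08 and 7.28 in controls and 7.64, 7.69, 8.02 and 7.92 in Grb2_cKO. It rose 1.7-fold (log2 fold change 0.77, SE 0.12, adjusted p = 0.00123). Bag3 itself, picked from the list of HSP70 partners after its values were seen, rose by 0.60 (SE 0.17, adjusted p = 0.0263). Its groups overlapped, and it passed in 3 of 8 fits that each left out 1 embryo (largest adjusted p = 0.0719). With the erythroid covariate Bag3 stood at 0.07 (limma adjusted p = 0.942).

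Hspb1 (HSP25 in mouse), which binds actin filaments, stood at 6.75, 7.02, 6.94 and 7.19 in controls and 8.001, 7.44, 7.69 and 7.71 in Grb2_cKO, and rose by 0.74 (SE 0.13, adjusted p = 0.00217). Grb2_cKO replicate 1 was the highest. A second probe set of Hspb1 had a log2 fold change of 0.20. With the erythroid covariate Hspb1 stood at 0.37 (limma adjusted p = 0.478). Hspb7, known from heart and muscle, stood at 5.94, 6.11, 6.27 and 6.18 in controls and 6.83, 6.41, 6.98 and 6.65 in Grb2_cKO, and rose by 0.59 (SE 0.12, adjusted p = 0.00589). The lowest Grb2_cKO embryo, replicate 2, lay 0.14 above the highest control.

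Hspb6 (HSP20), a small heat shock protein of smooth and heart muscle, stood at 8.93, 9.24, 9.26 and 9.29 in controls and 9.74, 9.34, 9.85 and 9.64 in Grb2_cKO, and rose by 0.46 (SE 0.12, adjusted p = 0.0176). The groups were 0.05 apart, and without Grb2_cKO replicate 3 the gene missed the threshold (0.39, adjusted p = 0.0515). Hspb3, Hspb9 and Hspb11 did not pass, at 0.12, -0.02 and -0.04. Hspb11, also called IFT25, is a part of cilia rather than a heat shock protein in function. Cryab, the small heat shock protein alpha-B crystallin, does not match the symbols but was on the list of stress-inducible genes and was picked after its values were seen. It rose by 0.96 (SE 0.24, adjusted p = 0.0135).

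Grouped by what induces them, the genes did not move 1 way. Of 10 measured genes known to respond to heat (Dnaja1 was not analysed here), Hspa1a, Hspb1 and Cryab rose, Hspd1, Hsph1, Hsp90aa1 and Hspe1 fell, and Hspa8, Hspa1b and Dnajb1 did not pass. The median was -0.27. Grouped by place, 5 of 10 ER chaperones fell and 1 rose (median -0.26), and 5 of 8 measured mitochondrial ones fell and 1 rose (median -0.41). Over all genes 14.3% fell and 13.7% rose, so the 1 that rose in each group is near that share. The 5 ER genes that fell were Hspa5, Hsp90b1, Dnajb11, Dnajc3 and Dnajc10, and Dnajb14 rose. With the Y-linked or the erythroid covariate the lower counts were 1 and 1 for the ER, 3 and 2 for mitochondria, and 3 and 2 for the heat-responsive genes, and none was higher. Over all genes these fits called 2.76% and 2.23% lower, and 2.85% and 1.8% higher.

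Partner genes from lists outside the 76 were also lower, to be read against 14.3% of all genes lower and 13.7% higher, and most of these calls were lost with a covariate. Of HSP90 partners 15 of 20 fell and none rose (median -0.36), but only 3 were lower with the Y-linked covariate (2.76% of all genes) and 2 with the erythroid one (2.23%). The smallest p-values were those of Fkbp4 (-0.62, SE 0.07), an immunophilin that joins HSP90 to steroid receptors, Nudcd2 (-0.71, SE 0.08) and Nudcd1 (-0.54, SE 0.07). Of prefoldin, tubulin folding and other CCT partners 8 of 14 fell and none rose (median -0.33), with 2 lower under each covariate. Txndc9, which binds CCT, fell by 0.54, Pfdn2, a subunit of the prefoldin complex that hands actin and tubulin to CCT, by 0.44, and Tbca, a tubulin cofactor, by 0.72. Among HSP70 partners 8 of 17 fell and 2 rose (median -0.25). None was called with the Y-linked covariate, and 2 were lower with the erythroid one. Without a covariate St13 (-0.54), Sugt1 (-0.51) and Hyou1 (-0.45) had the smallest p. Bag3 and Bag6, named after their values were seen, were the 2 that rose, and Bag6 (0.25) passed in 2 of the 8 fits without 1 embryo (largest adjusted p = 0.111).

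In the list of ER folding and unfolded protein response genes, which shares Hyou1 and Sil1 with the HSP70 partners, 8 of 29 fell and 3 rose (median -0.09). None was called with the Y-linked covariate, and 2 were lower and 1 (Crebrf, not among the 3) higher with the erythroid one. Pdia6, a disulfide isomerase, fell by 0.42, Hyou1 by 0.45 and Creld2 by 0.47, and Ddit3, Syvn1 and Derl1 were the 3 that rose. Ddit3, a stress-linked transcription factor gene named after its values were seen, rose by 0.29. Syvn1 and Derl1 each passed in 2 of the 8 fits without 1 embryo (largest adjusted p = 0.106 and 0.129). Of mitochondrial import and protease genes 8 of 20 fell and none rose (median -0.26), and 1 was lower under each covariate. Without one, Lonp1, a matrix protease, stood at -0.53, Timm23 at -0.49 and Tomm70a at -0.40. Of the heat shock factors, Hsf2 fell by 0.49 (SE 0.08, adjusted p = 0.00117) and Hsf4 did not pass (0.01). The call of Hsf2 was lost with the Y-linked (adjusted p = 0.0769) and the erythroid covariate (adjusted p = 0.107) and with control replicate 3 as the single control (adjusted p = 0.128). Hsf1 was not analysed here.

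Markers of cell types and of proliferation moved beside these groups, and their part in the chaperone values was not tested. Their counts are to be read against 14.3% of all genes lower and 13.7% higher. Beside the genes that fell, 16 of 17 proliferation genes were lower (mean over the list 11.29 to 11.35 in controls and 10.63 to 10.86 in Grb2_cKO), as were 12 of 15 ureteric epithelium markers (8.99 to 9.07 and 7.77 to 8.11) and 8 of 10 nephron progenitor markers (10.19 to 10.38 and 9.02 to 9.52). None of these lists had a gene that rose. Beside the small heat shock protein genes that rose, 9 of 10 stroma markers were higher and none lower (10.55 to 10.79 and 11.20 to 11.39). Macrophage markers were higher in 8 of 10 cases (7.16 to 7.30 and 7.97 to 8.39), and erythroid ones in 5 of 6 with Tfrc lower (7.26 to 7.79 and 7.94 to 8.38). Ranges of the groups did not overlap in any of these lists. With the Y-linked covariate 9 proliferation genes, 7 ureteric and 4 nephron progenitor markers were lower, against 2.76% of all genes. In that fit 3 stroma, 4 macrophage and 1 erythroid marker were higher, against 2.85% of all genes.

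Adding the level of the Y-linked genes to the limma fit left 5.62% of all genes called. Of the 76 chaperone genes 13 were lower (2.76% of all genes) and none higher (2.85%). The 13 were Cct3, Cct6a, Cct7, Cct8, Hspd1, Hspa4, Hsph1, Hsp90aa1, Hspa9, Dnajb11, Dnajc9, Dnajc15 and Dnajc21, all of which also fell without it. The errors of these genes were larger in that fit. Cct3 stood at -0.78 (SE 0.12, adjusted p = 0.013), Hspd1 at -0.82 (SE 0.14, adjusted p = 0.0185) and Hsph1 at -0.96 (SE 0.21, adjusted p = 0.0333). Of the genes that rose, Hspb8 stood at 0.74 (SE 0.20, adjusted p = 0.0693), Hspb1 at 0.77 (adjusted p = 0.0734) and Hspa1a at 0.69 (adjusted p = 0.152). At an unadjusted p under 0.05, 4 of the 76 genes were higher in limma with the covariate. The share of all genes higher at that cut was not counted, so this number has no background beside it.

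**Figure D4:**
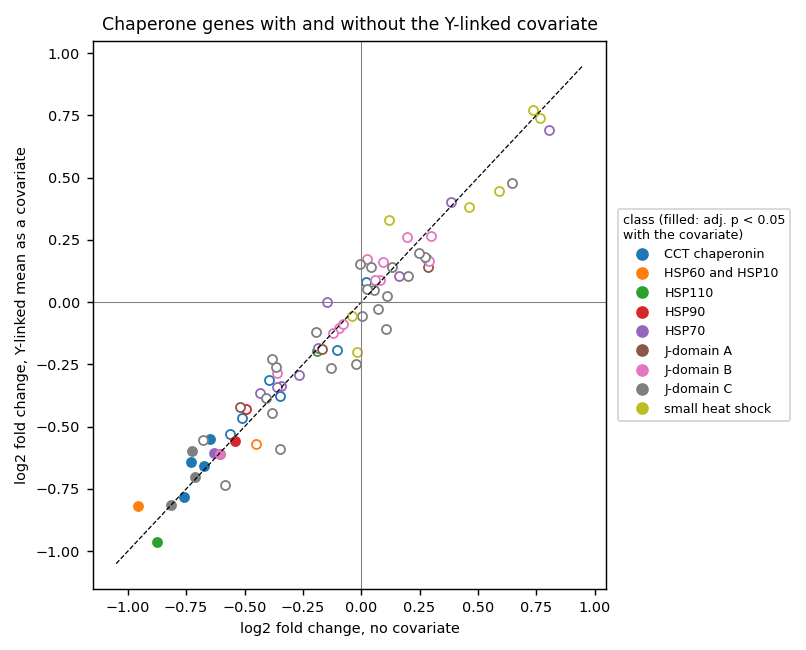
Log2 fold change of each of the 76 chaperone genes without a covariate (horizontal) and with the mean of 3 Y-linked genes as a covariate (vertical), coloured by class, with the dashed line at equal values and filled points for an adjusted p under 0.05 with the covariate. The 13 filled points are all in the lower left, between -0.96 and -0.55 on the vertical axis, and the small heat shock protein genes that rose lie near the line at the upper right without passing.

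Control replicate 3 alone among the controls had Y-linked levels like those of Grb2_cKO, so that fit leans on 1 embryo. With it as the single control, 1.28% of all genes and 0 chaperone genes passed in limma (26 lower and 7 higher at an unadjusted p under 0.05), and the 40 genes called with all controls kept their direction. The counts at an unadjusted p with this single control were not made over all genes, so they have no background beside them. Control replicate 3 was itself among the controls behind those 40 calls. Over all genes 6226 of the 6227 called also kept their direction, so the 40 do not stand out. Of the 39 chaperone genes called without control replicate 3, 29 were lower and 10 higher. The value of control replicate 3 lay on the control side of all 4 Grb2_cKO values in all 39. It lay within the range of the other 3 controls in 23. These counts were not made over all genes, so they have no background beside them. Positions were also put on a scale from the mean of the other controls (0) to that of Grb2_cKO (1). The median position of control replicate 3 was 0.11 (quartiles -0.02 to 0.22), near the 0.14 over the 5496 genes called without it. The mean of the erythroid markers did not overlap between groups (7.26 to 7.79 in controls and 7.94 to 8.38 in Grb2_cKO). A fit with it as a covariate can thus hardly tell it apart from genotype. The SE of Cct3 was 0.15 in that fit, against 0.07 without a covariate. With this mean as a covariate, 4.03% of all genes were called, and 11 chaperone genes were lower (2.23% of all genes) and none higher (1.8%). Of these 11 Dnajc8 (-0.92, adjusted p = 0.0382) was not among the 30 that fell without it. With this covariate those 30 genes ran from -1.51 (Hsph1) to -0.01 (Dnajc7). The genes that rose without it ran from 0.04 (Dnajc30) to 0.81 (Hspb8). At an unadjusted p under 0.05, 5 chaperone genes were higher in limma with that covariate, again without a count over all genes.

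The pooled within-group SD of the 76 genes had a median of 0.108, against 0.136 over all genes. Hspa1b (0.290), Dnajc30 (0.279) and Hspa1a (0.256) varied most. In Hspa1a, Hsph1, Hspe1, Hspb1 and Dnajc30 control replicate 1 was the lowest and control replicate 4 the highest of the controls. Other chaperone genes, such as Cct2, Dnajb11 and Hspb6, showed the same, and the share over all genes was not counted. Among the 30 genes that fell, Grb2_cKO replicate 4 had the lowest value in 14 and replicate 3 in 8, while replicates 1 and 2 had 4 each.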

How the data were processed

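Total RNA (200 ng amplified per embryo, biotin label) was measured on an expression array, per the labels' protocols. The authors deposited log2 expression values per probe set. Transcriptome Analysis Console was used, per the submitters' processing notes, with its version and normalization not given in the sources used here. Values ran from 1.25 to 14.08, with array medians of 6.61 to 6.72, and were used as deposited. Of 41345 probe sets, 23521 had 1 gene symbol, 1814 several and 16010 none. Per gene the probe set with the highest mean over the 8 arrays was kept, giving 22180 genes. No column was left unused.

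Groups were compared with limma 3.58.1 (lmFit and eBayes, R 4.3.3) without covariates, with p-values adjusted by Benjamini-Hochberg over all genes and 95% intervals. It was tested on simulated data of 22180 genes, with 200 changed genes in each of 10 draws. There it called 5.6% of changes of 0.3 and 61.8% of changes of 0.6 (log2), with 4 false calls a draw. In the real data 28.1% of genes passed, which makes the adjusted threshold easier to reach, so these rates do not describe the real comparison. The 4 arrays a group limit the precision. Any chaperone gene could be named, with values in every embryo for up to 4 genes of smallest p per class (30 genes). Outside that rule, values in every embryo were also given for Hspa1b, Hspa8 and Dnajc30. Up to 3 genes of smallest p were named per other list. The genes and lists were chosen with earlier results of these data known. Alternatives covered normalization, dim genes, probe set choice, spread, covariates, thresholds and each embryo left out. No sequence of proteins was used here.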

Additional observations from a re-analysis of the deposited data

Results flagged for a closer look

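Of 62 groups of 4 embryos, 2 held an embryo whose gap to the nearest other, divided by the group's range, was above Dixon's 95% critical value for 4 samples, and chance gives about 1 in 20 groups. For Dnajb9, Grb2_cKO replicate 1 stood at 9.47 against 9.11 to 9.15 in the other Grb2_cKO embryos, a ratio of 0.892. For Hspb6, control replicate 1 stood at 8.93 against 9.24 to 9.29 in the other controls, a ratio of 0.871.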

How the results depend on the processing

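Of the chaperone genes 30 were lower and 10 higher. With a covariate for the Y-linked level these became 13 and 0, with the erythroid mean 11 and 0, and with control replicate 3 as the only control, an alternative chosen after seeing the data, 0 and 0. That last fit has 1 control, assumed to vary like the Grb2_cKO group. At an adjusted p under 0.01, 5 were higher. Without 1 embryo, lower counts were 29 to 31 and higher counts 8 to 11. By class, in the order Y-linked, erythroid and control replicate 3 alone, the lower counts were 4, 4 and 0 for CCT, 1, 1 and 0 for HSP60 and HSP10, 1, 0 and 0 for HSP90, 1, 0 and 0 for HSP70, 0 each for J-domain A, 1, 1 and 0 for J-domain B and 3, 3 and 0 for J-domain C. HSP110 stayed at 2 with both covariates and gave 0 with control replicate 3 alone. The higher counts of every class were 0 in these 3 fits. HSP60 and HSP10 had 1 lower with adjustment over all probe sets and 1 to 2 without 1 embryo (1 without control replicate 3 or 4). J-domain A had 0 higher under quantile normalization, centring or adjustment over all probe sets, and 0 to 1 without 1 embryo. J-domain B had 1 to 2 lower and 1 to 2 higher without 1 embryo, 2 higher without dim genes, with a trended and robust spread or with array weights, and 0 with the mean of probe sets. J-domain C had 3 higher under quantile normalization or without dim genes, 2 with a trended and robust spread, and 1 to 2 without 1 embryo, and its 9 lower became 11 without dim genes or with a trended and robust spread (Dnajc8 and Dnajc13 gained) and 10 with array weights (Dnajc8). The cause was not tested. No called value changed sign. No paired analysis was possible because the labels number no replicates.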
